A study of Mus musculus with 4 samples.

Results

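The genes described here encode the TGF-beta ligands (Tgfb1, Tgfb2 and Tgfb3), the latent TGF-beta binding proteins (Ltbp1 to Ltbp4) and the matrix protein TGFBI, measured in cultured mouse osteoblasts before and during insulin treatment. Members were all probe sets of the deposited table whose platform annotation gave one of these symbols alone. This rule found 20 probe sets for 8 genes, out of 34945 probe sets with 1 symbol for 18193 genes. The series has 4 groups with 1 Affymetrix array each. Insulin at 10 nM was applied for 6, 12 or 24 h in the treated groups, and the control was taken at 0 h. Cells of all groups were osteoblasts grown to confluence that lack the IGF-1 receptor per the growth protocol, whereas the genotype entry names IGF-1 itself, and serum was withdrawn before insulin was added. The labels do not give the strain, the way the gene was removed, the number of clones or whether the arrays came from separate cultures, and with 1 array per group there is no replicate check.

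TGF-beta ligands are made as precursors whose propeptide stays wrapped around the mature dimer and keeps it inactive. In many cells, osteoblasts among them, this small latent complex is disulfide-linked to a latent binding protein (LTBP), which anchors it to fibrillin and fibronectin fibres of the matrix until integrins, proteases or thrombospondin release it. Bone matrix is a large store of latent TGF-beta, which is freed when osteoclasts resorb bone and acts on osteoblast precursors. TGFBI is a secreted, integrin-binding matrix protein named for its induction by TGF-beta.

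Ligand and binding protein genes split into a group that was far brighter on the insulin arrays and a group that was not. Taking the brightest probe set of each gene, Tgfb2, Tgfb3, Ltbp1, Ltbp2 and Tgfbi were at least 2-fold higher at 6, 12 and 24 h than at 0 h, which is 5 of 8 genes. Of all 11661 genes above the brightness filter 9.81% were at least 2-fold higher at all 3 times. Members were chosen with earlier results of these data known, so counts and medians set beside all genes describe the set only. Tgfb1 was between 1.57-fold and 1.96-fold higher, and Ltbp3 and Ltbp4 had between 0.893 and 1.13 times their 0 h intensity. None of the 8 was 2-fold lower at all 3 times, against 3.8% of all genes. The 3 comparisons with 0 h share the same control array and are not independent of each other. The median log2 difference of the 8 genes from 0 h was 1.61, 1.67 and 1.79 at 6, 12 and 24 h, against 0.0058, 0.033 and -0.00012 over all genes. The brightness filter kept probe sets whose mean over the 4 arrays reached an intensity of 66.2, the median of all probe sets, and 16 of the 20 member probe sets passed it. Of these 16, 9 exceeded the control by 2-fold or more at each time, where 9.55%, 10.4% and 10.0% of all probe sets above the filter did at 6, 12 and 24 h. The same 9 did so at all 3 times, against 8.71%. None was 2-fold lower at any time, where 4.99%, 6.18% and 5.72% of all probe sets were at 6, 12 and 24 h and 4.13% at all 3 times. The 0 h array was the lowest of the 4 for 14 of the 16 probe sets, against 41.9% of all probe sets, and for 6 of the 8 genes, against 44.7% of all genes. A member that passed the filter through bright insulin arrays alone had to differ from 0 h, and 2 Tgfb2 probe sets, with 48.0 and 28.2 at 0 h, were of this kind.

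**Figure D1:**
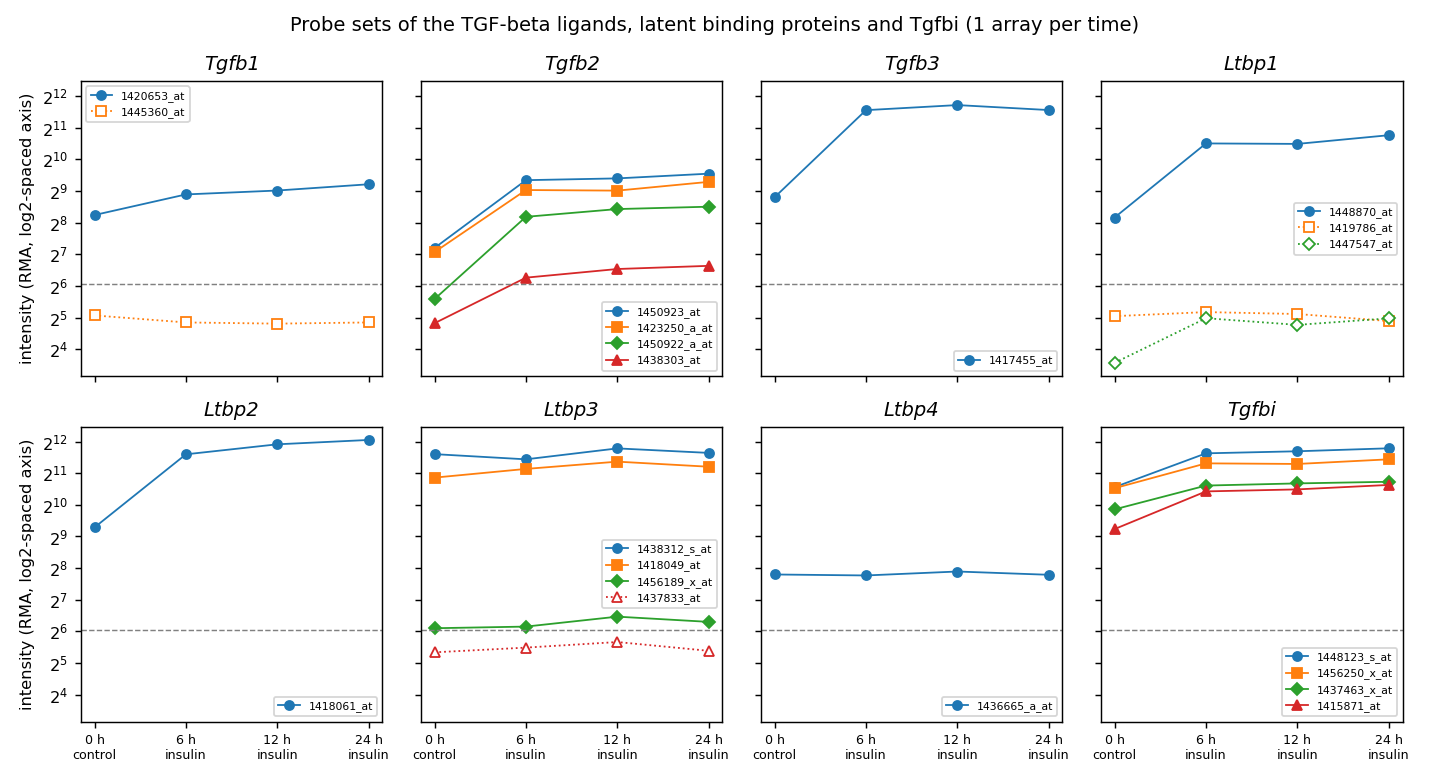
Intensity (RMA, log2-spaced axis) of every member probe set on the 4 arrays, 1 panel per gene, with 1 point per array and a dashed line at the filter value of 66.2. Lines of Tgfb2, Tgfb3, Ltbp1 (brightest probe set), Ltbp2 and Tgfbi step up between 0 h and 6 h and then run nearly level, while those of Ltbp3 and Ltbp4 are nearly level throughout. Open symbols and dotted lines mark the 4 probe sets below the filter.

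The 0 h array differed from the insulin arrays well beyond these genes. Of 10 osteoblast markers 7 had a probe set of their symbol alone, and all 7 were above the filter, although Alpl (61.5), Sp7 (60.8) and Pth1r (36.9) were under it on the 0 h array. Of the 7, 5 were at least 2-fold higher at all 3 times, these 3 among them, and the summed intensity was 32587 to 42875 on the insulin arrays and 14512 at 0 h. Markers of smooth muscle and myofibroblasts were higher in 5 of 6 (sums of 43625 to 46283 on the insulin arrays and 6101 at 0 h), of chondrocytes in 4 of 5 (6348 to 10949 and 955), of macrophages in 5 of 6 above the filter with 1 lower (5382 to 7604 and 965), of tendon in 2 of 3 (6604 to 8170 and 351) and of adipocytes in 2 of 4 (2680 to 5449 and 1016). Of those higher, Actg2 (30.1), Cnn1 (36.0), Myh11 (24.9), Scx (18.8) and Tnmd (59.7) were under the filter value at 0 h. So were Col9a1 (32.3), Cd68 (36.1), Tyrobp (62.7) and Adipoq (23.4). These and the 3 osteoblast markers passed the filter through the insulin arrays alone, so they had to differ from 0 h. Endothelial markers were below the filter in 4 of 5 (212 to 245 and 213). Sums cover all markers with a probe set, also those below the filter, which is 8 genes for macrophages and 5 for endothelial cells. Xist had 1278 to 1636 on the insulin arrays and 109 at 0 h, and the Y-linked Eif2s3y 295 to 326 and 12.2. Median log2 differences of whole chromosomes, averaged over the insulin arrays, ran from 0.33 on chromosome 4 to -0.25 on chromosome 8. These measures move with every difference from 0 h given below, and their part in it was not tested. Whether the 0 h array came from the same cell population as the insulin arrays was not tested either, so each difference below is one between arrays and is not assigned to insulin. In bulk RNA, fewer cells of a type and less RNA per cell cannot be told apart, and neither can time in culture and insulin, since the only untreated array used here is the one at 0 h.

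Promoter sequences are shown for 3 genes that were 4-fold or more higher and, for contrast, for Tgfb1, which was less than 2-fold higher. The arrays measured RNA and not these regions. Sequences come from RefSeq (GRCm38.p6). The set of promoters used here held 7 of the 8 genes and lacked Tgfb3. Each window holds up to 250 bases before an annotated start, 5′ to 3′ on the gene's strand. Capitals mark every match, on either strand, to the TATA box letters TATAAA, the cAMP response element TGACGTCA, the AP-1 letters TGANTCA, the Smad box CAGAC or the GC box GGGCGG. Windows of Ltbp1 and Ltbp2 stop short of this start, at the first base of the annotated gene.
Tgfb2, chr1:186705990-186706239, minus strand: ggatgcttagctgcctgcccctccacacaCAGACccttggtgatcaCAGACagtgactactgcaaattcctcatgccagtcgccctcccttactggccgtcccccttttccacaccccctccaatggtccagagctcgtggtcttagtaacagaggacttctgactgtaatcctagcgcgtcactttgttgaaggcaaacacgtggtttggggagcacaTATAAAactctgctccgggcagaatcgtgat
Ltbp1, chr17:75005279-75005479, plus strand: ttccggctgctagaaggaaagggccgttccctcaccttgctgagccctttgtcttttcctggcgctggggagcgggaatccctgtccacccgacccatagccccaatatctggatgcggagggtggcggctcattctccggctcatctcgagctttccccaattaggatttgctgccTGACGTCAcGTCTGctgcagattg
Ltbp2, chr12:84876559-84876741, minus strand: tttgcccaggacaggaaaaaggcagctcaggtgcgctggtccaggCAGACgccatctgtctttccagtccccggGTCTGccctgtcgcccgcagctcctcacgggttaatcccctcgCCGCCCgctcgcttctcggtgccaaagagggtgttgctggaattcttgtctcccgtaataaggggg
Tgfb1, chr7:25686752-25687001, plus strand: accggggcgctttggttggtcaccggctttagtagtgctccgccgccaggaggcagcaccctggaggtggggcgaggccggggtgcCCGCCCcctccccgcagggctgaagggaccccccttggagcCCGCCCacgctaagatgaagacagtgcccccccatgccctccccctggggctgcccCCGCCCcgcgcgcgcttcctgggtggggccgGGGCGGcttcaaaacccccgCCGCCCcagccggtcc

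These 4 windows differ in their letters. In the Tgfb2 window a TATA box lies 31 to 26 bases before the start and 2 Smad boxes lie further out. This is the only Tgfb2 start among the promoters used here, although the annotated Tgfb2 gene reaches further upstream. Ltbp1 has a cAMP response element 73 to 66 bases before the start shown with 1 Smad box beside it. This is 1 of 2 Ltbp1 starts in the table, and the window of the other (chr17:75178531-75178780) holds 2 Smad boxes and no cAMP response element. Ltbp2 has 2 Smad boxes and, in its full 250 bases, 2 GC boxes. Tgfb1 has 5 GC boxes and a GC content of 75.2%, against a median of 52.4% over all promoters. Among the windows not printed, that of Ltbp3, which stayed near its 0 h intensity, holds 1 Smad box, no GC box and 47.2% GC. The windows of Ltbp4, which also stayed near 0 h, hold 3 to 7 GC boxes and no Smad box. That of Tgfbi holds 2 Smad boxes and 1 GC box. Of all 32851 promoter windows of 250 bases, 12.4% hold the TATA box letters, 1.55% the cAMP response element, 6.75% the AP-1 letters, 42.2% the Smad box and 32.7% the GC box. Such matches describe the sequence and are not measured binding sites.

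Among the ligands, Tgfb3 and Tgfb2 were several-fold higher on the insulin arrays and Tgfb1 was under 2-fold higher. Tgfb3, the isoform known for its role in palate closure, has a single probe set (1417455_at) with intensities of 446, 3010, 3364 and 3016 at 0, 6, 12 and 24 h. All insulin arrays were thus high and close to each other, and the control array was low. This corresponds to 6.75-fold, 7.54-fold and 6.76-fold at 6, 12 and 24 h. The gene lies on chromosome 12 (GRCm38.p6, chr12:86056743-86079041), whose median log2 difference was between -0.07 and -0.04, and less that median its log2 differences were 2.79, 2.95 and 2.83.

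Tgfb2, the isoform needed for heart and skeletal development in mice, was covered by 4 probe sets that all read higher on the insulin arrays. The brightest (1450923_at) had 147, 649, 675 and 748 at 0, 6, 12 and 24 h, and 1423250_a_at had 134, 523, 516 and 625. Both gave differences of about the same size, from 3.84-fold to 5.09-fold. Another (1450922_a_at) had 48.0, 291, 345 and 363, which is 6.06-fold, 7.18-fold and 7.57-fold higher, and the dimmest (1438303_at) had 28.2, 76.7, 92.7 and 99.3, which is 2.71-fold, 3.28-fold and 3.52-fold higher. Both of these were below the filter value on the 0 h array, so their folds lean on a dim control reading. Tgfb2 lies on chromosome 1 (chr1:186622787-186709697), where the chromosome median was 0.25, 0.27 and 0.27, and less that median the brightest probe set was 1.90, 1.93 and 2.08 higher on the log2 scale.

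Tgfb1, the most widely expressed isoform and the main one stored in bone, differed less. Its probe set above the filter (1420653_at) had 302, 475, 517 and 593 at 0, 6, 12 and 24 h. Each insulin array was higher than the one before it, and all were above the control. Against 0 h this is 1.57-fold, 1.71-fold and 1.96-fold, short of 2-fold at every time. The other probe set (1445360_at) was below the filter and slightly lower on the insulin arrays, with 33.5, 28.7, 28.0 and 28.7. Tgfb1 (chr7:25687002-25705077) lies on a chromosome whose median was itself 0.18, 0.24 and 0.21 higher, and less that median its log2 differences were 0.47, 0.53 and 0.77.

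**Figure D2:**
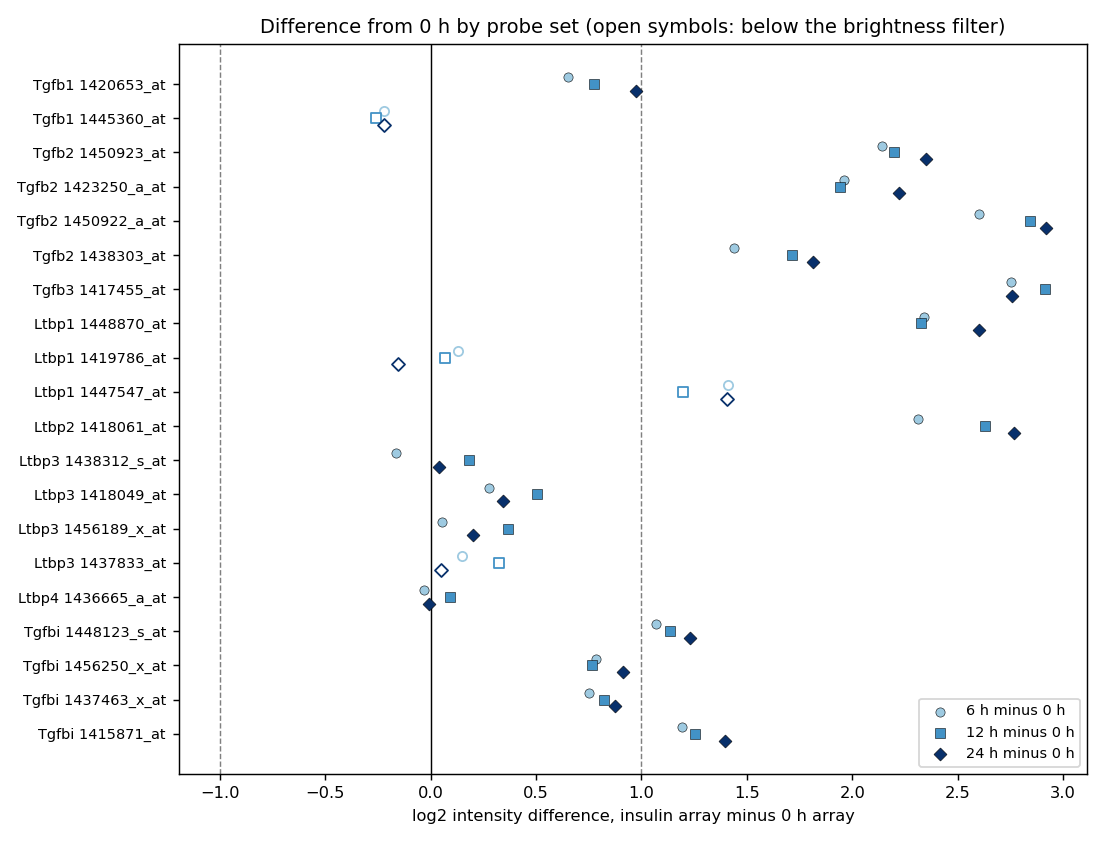
Log2 intensity difference of each insulin array from the 0 h array for the 20 member probe sets, by gene, with circles for 6 h, squares for 12 h and diamonds for 24 h. Open symbols are probe sets below the filter and dashed lines mark 2-fold. Symbols of Tgfb2, Tgfb3, Ltbp2 and the brightest Ltbp1 probe set lie right of 1, those of Ltbp3 and Ltbp4 lie well left of it, and Tgfbi probe sets lie on both sides of 1.

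The latent binding proteins divided by gene. LTBP1 and LTBP3 carry the small latent complexes of all 3 ligands, LTBP4 binds that of TGF-beta1 weakly, and LTBP2 binds none and competes for fibrillin. Ltbp1 had 286, 1452, 1437 and 1738 at 0, 6, 12 and 24 h by its brightest probe set (1448870_at). The insulin arrays were all high, at 5.07-fold, 5.02-fold and 6.07-fold over the control. Its other probe sets were below the filter. One of these (1447547_at) also read higher on the insulin arrays, with 11.9, 31.5, 27.2 and 31.4, and the other (1419786_at) was level, with 33.0, 36.1, 34.6 and 29.6. Averaged over its 3 probe sets, the log2 differences of Ltbp1 were 1.29, 1.20 and 1.28 in place of 2.34, 2.33 and 2.60. Ltbp1 lies on chromosome 17 (chr17:75005480-75392512), whose median was lower by 0.15 to 0.20, opposite to the gene.

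Ltbp2 had 625, 3099, 3860 and 4246 at 0, 6, 12 and 24 h (1418061_at, its single probe set), or 4.96-fold, 6.18-fold and 6.80-fold over the control. It was the member with the widest span among the insulin arrays, 1.37-fold higher at 24 h than at 6 h. Ltbp2 and Tgfb3 both lie on chromosome 12, Ltbp2 at chr12:84783212-84876558, and both were higher by more than 2.3 on the log2 scale less the chromosome median.

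Ltbp3 and Ltbp4 did not reach 1.5-fold on any probe set or array. Ltbp3, whose loss in mice disturbs bone and tooth formation, had 3111, 2777, 3528 and 3197 by its brightest probe set (1438312_s_at). The 6 h array was below the control and the other insulin arrays above it. By the next one (1418049_at) it had 1860, 2251, 2639 and 2362, with all insulin arrays above the control by 1.21-fold to 1.42-fold. The remaining probe sets had 68.6, 71.1, 88.4 and 78.8 (1456189_x_at) and, below the filter, 40.5, 44.9, 50.7 and 41.8 (1437833_at). The direction of Ltbp3 at 6 h therefore depends on the probe set, and with suffixed probe sets left out its log2 difference was 0.28 in place of -0.16. Ltbp4, which supports elastic fibre assembly, had 223, 218, 238 and 221 by its only probe set (1436665_a_at), and the control lay within the range of the insulin arrays. Ltbp3 lies on chromosome 19 (chr19:5740900-5758536) and Ltbp4 on chromosome 7 (chr7:27305140-27339720), with chromosome medians of -0.17 to -0.21 and 0.18 to 0.24.

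Tgfbi was about 2-fold higher on all insulin arrays. Its brightest probe set (1448123_s_at) had 1509, 3167, 3313 and 3536 at 0, 6, 12 and 24 h, which is 2.10-fold, 2.19-fold and 2.34-fold. Another (1415871_at) had 602, 1375, 1437 and 1585, or 2.28-fold, 2.39-fold and 2.63-fold. Both showed the control low and the insulin arrays high in the order of time. The remaining 2 probe sets gave 1.72-fold, 1.70-fold and 1.88-fold (1456250_x_at) and 1.68-fold, 1.77-fold and 1.83-fold (1437463_x_at). Suffixes s and x, which 3 of the 4 probe sets carry, the brightest included, mark probes that can match other transcripts, and the one without (1415871_at) was past 2-fold at all 3 times. Averaged over the 4 probe sets, the log2 differences at 6 and 12 h were 0.95 and 0.99, just under 2-fold. Tgfbi lies on chromosome 13 (chr13:56609586-56639359), with a chromosome median between -0.07 and -0.05.

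Among the insulin arrays the members differed by 1.37-fold at most. The 0 h array did not enter these differences, but it counted in the filter and in the choice of the brightest probe set. No member was 1.5-fold apart between any pair of insulin arrays, where 1.48% of all genes were between 12 h and 6 h, 1.8% between 24 h and 6 h and 0.206% between 24 h and 12 h. At a lower threshold, with 1 array at least 25% brighter than the other, Ltbp2 was apart between 24 h and 6 h (1.37-fold higher at 24 h), where 6.7% of all genes were. Ltbp3 was apart between 12 h and 6 h (1.27-fold higher at 12 h), where 7.79% of genes were, and no member was between 24 h and 12 h, where 3.22% were. Tgfb1 lay just under this threshold, 1.249-fold higher at 24 h than at 6 h. All 16 member probe sets above the filter read higher at 24 h than at 6 h, where 46.5% of all probe sets above the filter did. The 4 below the filter did not, with log2 differences of 0.0 (Tgfb1), -0.28 and -0.0048 (Ltbp1) and -0.10 (Ltbp3). Probe sets of a gene also share its RNA. Counted by gene, 8 of 8 read higher at 24 h than at 6 h, against 49.1% of all genes. Tgfb3 and Ltbp4 were higher by 0.0031 and 0.021 log2 only. The median log2 difference between 24 h and 6 h was 0.20 for the 8 genes and -0.0023 for all genes.

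The order of the insulin arrays differed between members. Tgfb1, Tgfb2, Ltbp1, Ltbp2 and Tgfbi were brightest at 24 h, which is 5 of 8 genes, against 27.4% of all genes. Tgfb3, Ltbp3 and Ltbp4 were brightest at 12 h, against 40.2% of all genes. All 4 Ltbp3 probe sets, 3 of them above the filter, had their highest insulin value at 12 h. Of all probe sets above the filter 35.5% had it there. All 4 probe sets of Tgfb2 and all 4 of Tgfbi had theirs at 24 h, where 27.4% of all probe sets had it. Probe sets of a gene share its RNA, so these are not separate counts. Steps between neighbouring times were small. The span over the insulin arrays was 1.09-fold to 1.37-fold for the 8 genes with a median of 1.18-fold, and over all genes its median was 1.11-fold and its 95th percentile 1.36-fold. Without replicates, neighbours in such an order cannot be told apart from the error of single arrays.

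**Figure D3:**
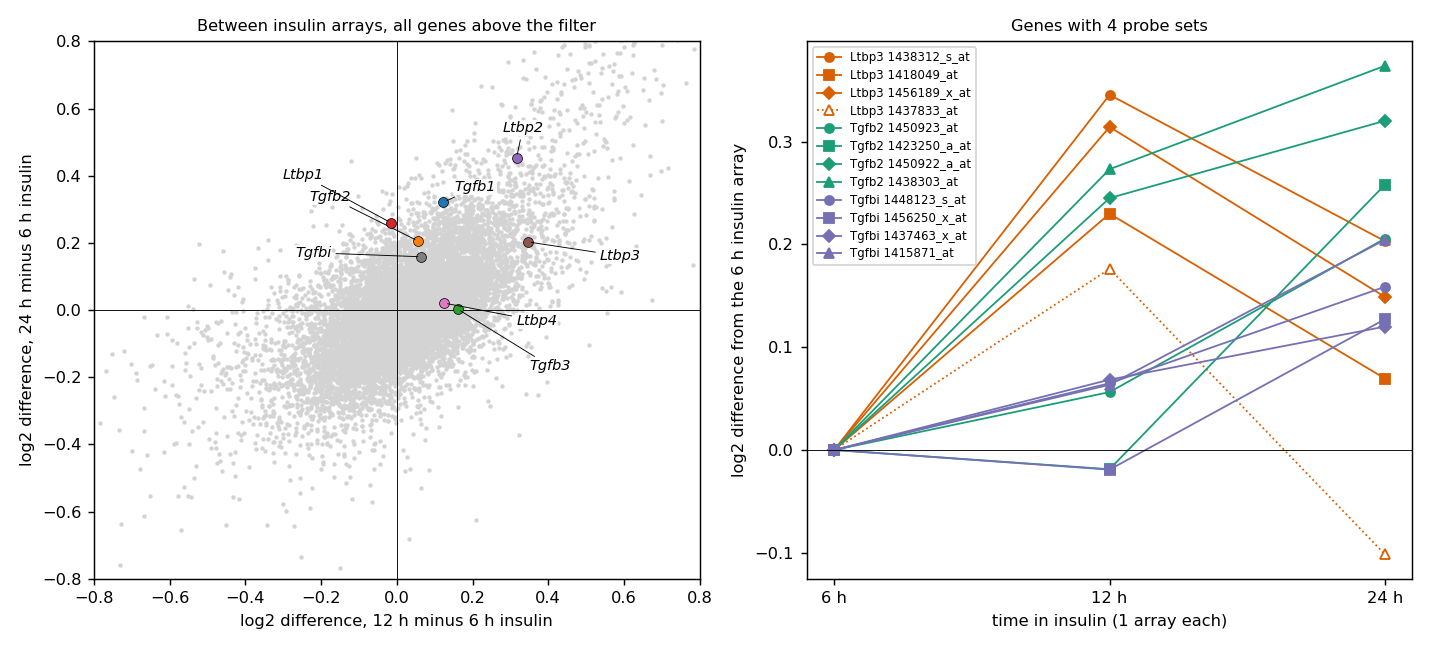
Left, log2 difference of the 12 h (x axis) and 24 h (y axis) insulin arrays from the 6 h insulin array for all genes above the filter (grey) and the 8 members (coloured), with 113 genes outside the plotted range. Right, log2 difference from the 6 h insulin array (y axis) at evenly spaced times (x axis) for each probe set of Ltbp3, Tgfb2 and Tgfbi, where Ltbp3 peaks at 12 h in all 4 probe sets, and Tgfb2 and Tgfbi are highest at 24 h in all 4 of theirs.

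Profiles most like those of the members were sought over the 4 arrays, by the Euclidean distance between log2 profiles after each profile's own mean was subtracted. Other members and predicted or Riken symbols were left out. For Tgfb3 the nearest genes were Trnp1, Pid1 and Csrp1, at distances of 0.077, 0.081 and 0.096. Csrp1, which encodes a LIM domain protein of smooth muscle, had 615, 4180, 4298 and 4007 at 0, 6, 12 and 24 h. For Ltbp2 they were Adgrg2, Clec4d and Maob, at 0.051, 0.084 and 0.087, and for Tgfb2 Crispld2, Erg and Dbt, at 0.081, 0.090 and 0.090. For Ltbp1 they were Ints6, Ppm1h and Lrp4, at 0.097, 0.13 and 0.15. Tgfbi had the closest neighbours, Pdpn, Ptp4a2 and Ccdc149, at 0.030, 0.032 and 0.038. Pdpn, which encodes podoplanin, had 1625, 3428, 3526 and 3874. All of these genes share the same 4 arrays with the members, and profiles over 4 points are a description only. Adgrg2, Clec4d, Maob, Erg, Dbt, Ppm1h, Lrp4 and Ccdc149 were under the filter value at 0 h, with 26.1 to 64.8. Their likeness to the members leans on a dim control reading.

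Type I and type II receptors bind the ligands and activate Smads, which carry the signal to the nucleus. Of 11 receptor genes of the family 2 were at least 2-fold higher and 1 lower at all 3 times, with median log2 differences of 0.37, 0.44 and 0.39. Eng, the co-receptor endoglin, had 260, 1044, 1166 and 1041 at 0, 6, 12 and 24 h, and Acvrl1, the type I receptor ALK1, had 111, 233, 265 and 230. Another Acvrl1 probe set (1435825_at) had 97.7, 176, 199 and 189, which is 1.80-fold, 2.04-fold and 1.93-fold and so short of 2-fold at 6 and 24 h. Eng and Acvrl1 are also known from endothelial cells, whose part in these values was not tested. Tgfbr3, the co-receptor betaglycan that presents TGF-beta2, was the lower one, with 4682, 1522, 1653 and 1642, and another probe set (1425620_at) with 306, 95.2, 82.4 and 86.7 ran the same way. Tgfbr1 and Tgfbr2 encode the signalling receptors themselves and were under 2-fold from 0 h. Tgfbr1 had 772, 634, 604 and 669, and Tgfbr2 had 4021, 6930, 6699 and 6768, but another Tgfbr2 probe set (1425444_a_at) had 607, 650, 502 and 460.

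Of 7 Smad genes above the filter 1 was at least 2-fold higher at all 3 times and none lower. Over all genes these shares were 9.81% and 3.8%. Median log2 differences of the Smads were 0.019, 0.088 and 0.12. The higher one was Smad6, an inhibitory Smad, with 138, 471, 508 and 447 at 0, 6, 12 and 24 h. Smad7, the inhibitory Smad that TGF-beta induces, came just short of 2-fold by its brightest probe set, with 156, 304, 305 and 304. Another Smad7 probe set (1443771_x_at) had 50.9, 149, 166 and 147 and was past 2-fold at all 3 times, at 2.92-fold, 3.26-fold and 2.89-fold. The receptor-activated Smad2 had 614, 587, 603 and 541 and Smad3 811, 821, 942 and 884. The common partner Smad4 had 2434, 2537, 2588 and 2648. For each of Smad2, Smad3 and Smad4 every other probe set above the filter pointed the other way from the brightest one, with 0.621 to 1.30 times the 0 h intensity.

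Latent TGF-beta is cut by convertases and later released by proteases, thrombospondin or integrins. Of 18 genes that process or activate latent TGF-beta 6 were higher and 2 lower at all 3 times, with median log2 differences of 0.32, 0.20 and 0.28. Of the 6, 4 were under the filter value at 0 h and passed the filter through the insulin arrays alone. Thbs1, the activator thrombospondin 1, had 1113, 12460, 12882 and 12478 at 0, 6, 12 and 24 h. Tgm2, the transglutaminase that crosslinks LTBP1 into the matrix, had 65.9, 842, 1087 and 1083, and the proprotein convertase gene Pcsk5 had 48.1, 399, 522 and 485. The tolloid-like protease gene Tll1 had 17.7, 655, 680 and 569, so its control reading was near the lowest intensities of the array. The lower ones were Mmp9, a gelatinase gene, with 249.3, 52.4, 51.2 and 53.7, and Plat, the tissue plasminogen activator gene, with 2668, 1257, 911 and 1104. Furin, the convertase that cleaves the TGF-beta propeptide, had 225, 291, 295 and 303. At 6 h 4 genes were at least 2-fold lower. Besides Mmp9 and Plat these were Itgb8 (210 at 0 h and 103 at 6 h) and Mmp2 (13635 and 6733). At 12 h and at 24 h only Mmp9 and Plat were. Mmp9, Plat, Furin, Itgb8 and Mmp2 were named after their values were seen.

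Of 14 matrix anchor genes 8 were higher at all 3 times and none lower, against 9.81% and 3.8% of all genes. Median log2 differences of the anchors were 1.70, 1.84 and 1.68. Fbn2, a fibrillin that LTBPs bind, had 44.9, 1349, 1632 and 1585 at 0, 6, 12 and 24 h, and Mfap5, a microfibril-associated glycoprotein, had 53.7, 3437, 3010 and 2741. Efemp1, a fibulin, had 150, 5134, 5836 and 5810, and Adamtsl3 had 77.8, 990, 1172 and 990. Fibrillin 1, the main fibrillin that anchors LTBP1, had no probe set with its symbol alone here.

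Inhibitors and targets were higher in part. Of 15 inhibitor genes 6 were higher at all 3 times and none lower at all 3, with median log2 differences of 0.81, 0.79 and 0.90. At 12 h and at 24 h 1 of them, Tgif1, was at least 2-fold lower (968, 549, 474 and 429 at 0, 6, 12 and 24 h). Lum, a small proteoglycan of collagen fibrils, had 1488, 10514, 11929 and 13203 at 0, 6, 12 and 24 h, and Fmod, its TGF-beta-binding relative fibromodulin, had 104, 3794, 5341 and 5754. Bambi, a pseudoreceptor, had 47.1, 340, 485 and 510, and the activin-binding Fstl3 had 73.3, 323, 327 and 335. Of 24 target genes 11 were higher at all 3 times and none lower at all 3, with median log2 differences of 0.86, 0.83 and 0.89. At 12 h and at 24 h 1 target, Klf10, was at least 2-fold lower (472, 245, 203 and 236 at 0, 6, 12 and 24 h). Tgif1 and Klf10 were named after their values were seen. Ccn2, connective tissue growth factor, had 304, 10897, 12899 and 12544, and Timp3, a protease inhibitor, had 436, 3774, 4536 and 4028. Tagln had 194, 15497, 15878 and 14966 and Cnn1 had 36.0, 2612, 2908 and 2659. Both encode actin-binding proteins of smooth muscle and belong also to the smooth muscle markers given above, which were higher on the same arrays. Over the 6 lists 34 of 89 genes were at least 2-fold higher at all 3 times and 3 lower, against 9.81% and 3.8% of all genes. Of the 34, 8 were under the filter value at 0 h and had to differ to be counted, as were 463 of the 1144 genes behind the 9.81%, so these counts describe the lists and support nothing further.

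**Figure D4:**
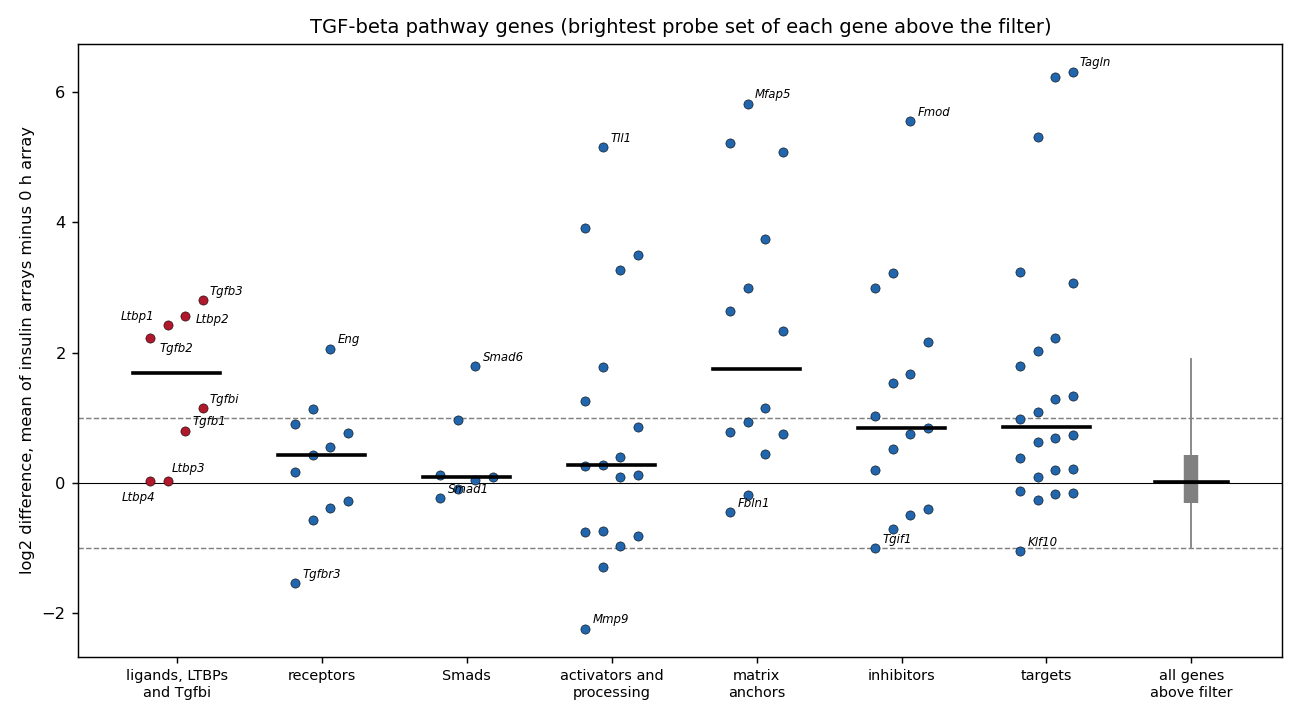
Log2 difference of the mean of the 3 insulin arrays from the 0 h array for the 8 members (red) and the genes of the 6 pathway lists above the filter (blue), with each list's median as a black bar and dashed lines at 2-fold. For all genes the thick bar spans the 25th to 75th percentile and the thin line the 5th to 95th. The members form an upper group of 4 genes above 2, Tgfbi and Tgfb1 near 1, and Ltbp3 and Ltbp4 at 0, and the Smad median lies closest of the lists to the all-gene median. The highest and the lowest gene of each list is named.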

How the data were processed

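The deposited table held RMA intensities on a linear scale, 1 per probe set and array, per the submitters' processing notes and the values, which ran from 7.34 to 31292. RMA corrects background, normalizes arrays and summarises probes, and it compresses differences of dim probe sets. Software and genome build were not given in the sources used here. Array medians lay between 64.97 and 65.75, and dim signals near background limit what the table can show.

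Of 45101 probe sets 64 were controls, 34945 had 1 symbol, 932 several and 9160 none here. The platform annotation can be old. Log2 was taken, each gene was represented by its brightest probe set over the 4 arrays, and those at or above the filter were kept. Log2 differences were formed between arrays and genes at least 2-fold apart were counted (1.5-fold between insulin arrays), with no test, since each group has 1 array. Counting was tested on simulated data. Chromosomes came from a RefSeq table of GRCm38.p6, which held 11646 of the 11661 genes. The 6 lists have 97 entries, 5 of them without a probe set of their symbol alone. Named were all members, 3 receptors and 4 Smads, the up to 4 list genes farthest from 0 h among those past 2-fold at all 3 times, and the 3 nearest profiles of members spanning 2-fold. Members and lists were chosen with earlier results of these data known. Alternatives were other folds, filters, centring, quantile normalization, other probe set rules and chromosome medians removed. Python 3.11.15, numpy 2.4.6, pandas 2.3.3 and matplotlib 3.10.9 were used.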

Additional observations from a re-analysis of the deposited data

How the results depend on the processing

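No paired analysis was possible because each group has 1 array with the same number. The count of 5 members at least 2-fold higher at all 3 times was 6 at 1.5-fold, 4 at 3-fold and 4 with averaged probe sets, and 5 under the other filters, normalizations, suffix rule and removal of chromosome medians. With averaged probe sets Tgfbi was 0.95 and 0.99 log2 higher at 6 and 12 h, under 2-fold. Values near 0 changed sign. Ltbp3 at 6 h was 0.046 with chromosome medians removed, 0.078 with averaged probe sets and 0.28 with suffixed probe sets left out, Ltbp3 at 24 h was -0.013 after quantile normalization, and Ltbp4 at 12 h was -0.15 with chromosome medians removed. Between insulin arrays, at the threshold of 25%, 1 member was apart at 12 h and 1 at 24 h from 6 h, where 0 were at 1.5-fold. Median log2 differences of members ran from 1.10 with averaged probe sets to 2.35 with suffixed probe sets left out, which leaves 7 members, as Ltbp4 has a suffixed probe set only. Receptor genes higher at all 3 times numbered 2, but 4 at 1.5-fold, 1 at 3-fold, 1 with averaged probe sets and 0 without suffixed ones, and the lower one was lost at 3-fold (0). Smads higher were 1, but 2 at 1.5-fold and 2 with averaged probe sets. Activators lower were 2, but 6 at 1.5-fold, 1 each at 3-fold, with the stricter filter and with chromosome medians removed, and 0 with averaged probe sets. At 1.5-fold 2 inhibitors and 1 target were lower, against 0 each. Beyond fewer probe sets and other thresholds the cause was not tested. With 1 array per group, the number of arrays and the signal over background of dim probe sets set the precision.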
